A study of Mus musculus with 12 samples.

Results

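Crystallin messenger RNA was measured in 12 retinas, and most of the family varied widely between mice of one group. The 10 genes described here are those whose symbol in the deposited table is Cryaa, Cryab, Cryba1, Cryba2, Cryba4, Crybb1, Crybb2, Crybb3, Crygs or Crygn, out of 56748 genes listed. All 10 passed the filter on low counts that left 18334 genes for testing. Cryab was steady at 27.7 to 51.4 CPM (counts scaled to 1000000 per library), whereas Cryaa ranged between 0 and 62.7 CPM, and every beta and gamma member but Crygn had its highest value in the same retina as Cryaa. None of the 10 passed the test between strains or between ages.

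Crystallins are the abundant soluble proteins of the vertebrate lens. The alpha crystallins are small heat shock proteins that hold unfolding proteins in solution, while the beta and gamma crystallins form a separate superfamily built from Greek key folds and pack densely in lens fibre cells. Outside the lens, Cryab is made in glia, muscle and retina, and beta and gamma crystallins have been described in retinal neurons and glia.

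The libraries were made from poly-A RNA of whole retinas, each from a separate mouse, with 3 mice in each of 4 groups: JR5558 at 4 weeks, JR5558 at 8 weeks, C57BL/6J at 4 weeks and C57BL/6J at 8 weeks. JR5558 is an inbred line in which new vessels grow under the retina without any treatment. It carries mutant alleles of Crb1 and Jak3, so the strains differ at more than 1 locus. The C57BL/6J mice were age-matched and wild type. The labels name no treatment. The counts per library summed to between 18029611 and 23739886, and Sag, the arrestin of photoreceptors and a marker of the labelled tissue, was at 3337 to 4790 CPM. The 3 JR5558 libraries at 4 weeks had 0 to 5 counts of Xist, which coats the silenced X, and 1323 to 1846 counts of the Y-linked gene Ddx3y, whereas the other 9 libraries had 7772 to 22988 Xist counts and 0 Ddx3y counts. Sex and group therefore cannot be told apart in the strain comparison at 4 weeks, the age comparison in JR5558 or the interaction of strain and age.

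The members lie on 6 chromosomes, with 5 members on chromosome 5. In the deposited positions, Cryba4 (chromosome 5, 112394359 to 112400384, minus strand) and Crybb1 (112403681 to 112417451, plus strand) are 3296 bases apart and point away from each other, and Crybb2 ends 5721 bases before Crybb3 on the same strand. Cryaa spans 31896781 to 31900707 on chromosome 17 and Cryab 50662625 to 50667936 on chromosome 9, both on the plus strand. None of the 10 members shared a start or end with the RefSeq annotation of GRCm38.p6. For Cryaa, the GRCm38.p6 promoter stretch ends at 31677930, far from the deposited start. The deposited positions are therefore not those of GRCm38.p6, and which build they follow is not settled. The promoters below carry their own coordinates. Cryba1 overlaps Nufip2 on the other strand, which had 1266 to 2524 counts per library, and Cryab overlaps Hspb2, which had 0 to 10. The labels do not say whether the libraries were strand-specific, so a share of the Cryba1 counts could come from Nufip2. This was not tested. Cryba1 had 0 counts in 1 library and 1 count in another.

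Promoters from RefSeq (GRCm38.p6) were found for 9 of the 10 members, all but Cryab. The window runs from 250 bases before the start to 50 after it, and 4 motifs were searched on both strands. TGCTGA, part of the element read by lens transcription factors of the MAF family, stood in 8 of the 9 windows, against 19.5% of 32851 promoters of the same length. TATAAA, the letters of a TATA box, stood in 4 of the 9 and in 13.6% of all promoters. Counted from the start, it begins at base -30 in Crybb1, -25 in Crygs and -23 in Cryba1. In Cryba2 it begins at -3 and so runs across the start. ACAATG, a SOX core, stood in 3 and in 12.6%. A heat shock element pair, GAANNTTC or TTCNNGAA, stood in 1, that of Cryba1, and in 15.1% of all promoters. The 250 bases before the start are shown for 5 members that span the pattern: Cryaa, the alpha crystallin with a promoter entry, Cryba1 and Crybb1, which pair a match with a TATA box, Cryba4, which has 3 matches, and Crybb2, which has none. Capitals mark TGCTGA and TATAAA, and sequences read 5′ to 3′ on the strand of the gene.
Cryaa (chr17:31677681-31677930, plus strand): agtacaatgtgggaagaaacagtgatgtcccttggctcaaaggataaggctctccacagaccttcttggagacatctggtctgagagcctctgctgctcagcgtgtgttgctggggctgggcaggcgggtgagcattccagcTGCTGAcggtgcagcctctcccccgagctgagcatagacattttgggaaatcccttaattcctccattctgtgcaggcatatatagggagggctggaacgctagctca
Cryba1 (chr11:77725294-77725543, minus strand): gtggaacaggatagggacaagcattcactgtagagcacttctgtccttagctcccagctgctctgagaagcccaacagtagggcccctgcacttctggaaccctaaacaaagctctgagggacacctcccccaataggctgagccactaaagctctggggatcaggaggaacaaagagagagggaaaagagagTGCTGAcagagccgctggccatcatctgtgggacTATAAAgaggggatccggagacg
Cryba4 (chr5:112252519-112252768, minus strand): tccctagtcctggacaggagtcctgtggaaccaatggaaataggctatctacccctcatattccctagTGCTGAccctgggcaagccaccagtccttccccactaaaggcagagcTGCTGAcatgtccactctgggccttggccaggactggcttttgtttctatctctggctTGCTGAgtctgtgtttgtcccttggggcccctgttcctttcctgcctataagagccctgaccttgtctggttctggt
Crybb1 (chr5:112255570-112255819, plus strand): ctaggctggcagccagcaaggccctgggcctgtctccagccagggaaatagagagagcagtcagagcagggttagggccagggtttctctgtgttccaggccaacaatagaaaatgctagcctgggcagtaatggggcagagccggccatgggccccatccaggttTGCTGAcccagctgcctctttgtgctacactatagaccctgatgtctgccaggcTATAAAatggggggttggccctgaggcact
Crybb2 (chr5:113070118-113070367, minus strand): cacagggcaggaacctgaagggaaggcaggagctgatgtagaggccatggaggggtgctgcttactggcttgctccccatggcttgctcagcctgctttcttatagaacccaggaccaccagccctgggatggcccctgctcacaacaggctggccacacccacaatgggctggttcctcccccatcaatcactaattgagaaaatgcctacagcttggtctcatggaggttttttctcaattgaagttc
Counted from the start, the matches begin at base -108 in Cryaa, -57 in Cryba1, -84 in Crybb1, and -182, -135 and -77 in Cryba4. A match describes the letters in the window and is no evidence of binding.

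Of the alpha crystallins, Cryaa, a chaperone that is abundant in lens, had 0.206, 14.1 and 0 CPM in the JR5558 retinas at 4 weeks and 4.68, 2.82 and 62.7 CPM in the C57BL/6J retinas of that age. At 8 weeks it had 25.3, 6.21 and 3.43 CPM in JR5558 and 1.68, 8.52 and 21.6 CPM in C57BL/6J. Every group holds a low and a high retina, and the groups overlap. The highest value is at least 425-fold above the limit of 3 counts in the library with none, which equals 0.147 CPM there.

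Cryab, the small heat shock protein that is also found widely outside the lens, had 40.2, 39.2 and 34.5 CPM in JR5558 and 27.7, 27.9 and 51.4 CPM in C57BL/6J at 4 weeks. At 8 weeks it had 47.5, 41.6 and 40.1 CPM in JR5558 and 32.7, 35.6 and 40.5 CPM in C57BL/6J. All 12 values lie within a ratio of 1.86, and both strains overlap at both ages.

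**Figure D1:**
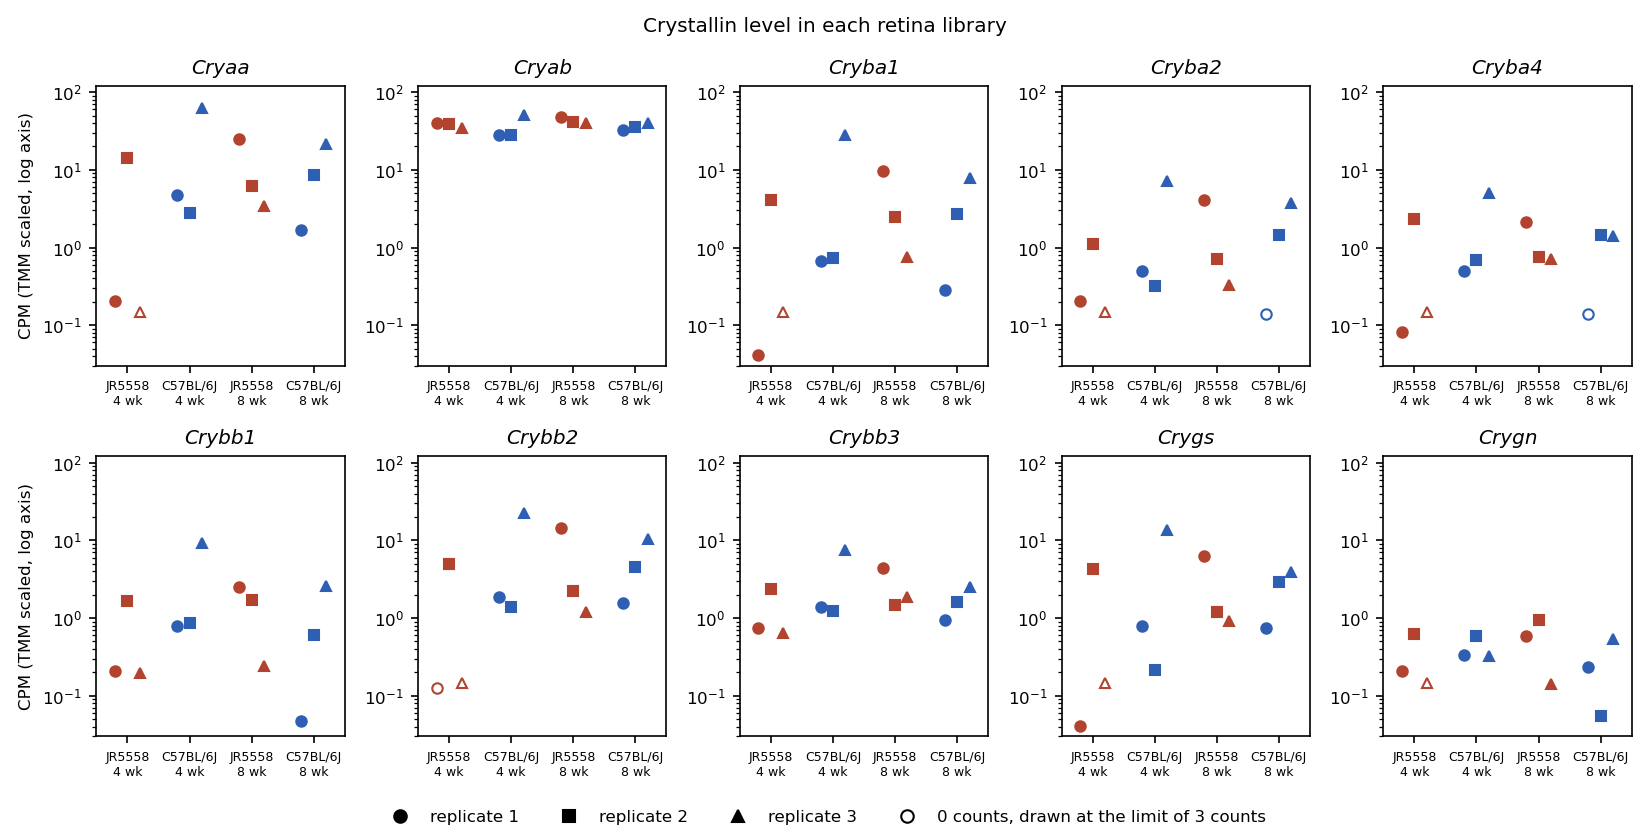
Level of each crystallin in each of the 12 libraries, in CPM on a log axis, with JR5558 in red and C57BL/6J in blue and 1 symbol for each replicate. Open symbols mark libraries with 0 counts, drawn at the level 3 counts would have, as an upper limit. Cryab stays between 27.7 and 51.4 CPM, while Cryaa and most beta and gamma crystallins are highest in the third C57BL/6J retina at 4 weeks.

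The acidic beta crystallins repeated the pattern of Cryaa. Cryba1, whose messenger RNA is translated from alternative starts, had 0.0413, 4.08 and 0 CPM in JR5558 and 0.668, 0.744 and 27.9 CPM in C57BL/6J at 4 weeks. At 8 weeks it had 9.67, 2.48 and 0.762 CPM in JR5558 and 0.280, 2.71 and 7.75 CPM in C57BL/6J. The same retinas are high as for Cryaa. Cryba2 ranged between 0 and 7.20 CPM and Cryba4 between 0 and 4.99 CPM, each with 0 counts in 2 libraries.

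Among the basic beta crystallins, Crybb2, a major protein of the adult lens cortex, had 0, 5.02 and 0 CPM in JR5558 and 1.84, 1.38 and 22.3 CPM in C57BL/6J at 4 weeks. At 8 weeks it had 14.5, 2.22 and 1.19 CPM in JR5558 and 1.54, 4.59 and 10.4 CPM in C57BL/6J. The order of the retinas again follows Cryaa. Crybb1 ranged between 0.0467 and 9.27 CPM. Crybb3 had counts in every library, ranged between 0.638 and 7.53 CPM, and was 11.8-fold higher in its highest library than in its lowest.

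Crygs, the gamma crystallin of the adult lens cortex, had 0.0413, 4.34 and 0 CPM in JR5558 and 0.780, 0.212 and 13.4 CPM in C57BL/6J at 4 weeks. At 8 weeks it had 6.36, 1.20 and 0.905 CPM in JR5558 and 0.747, 2.88 and 3.96 CPM in C57BL/6J. It too is high where Cryaa is high. Crygn, a relative that joins features of the beta and gamma families, stayed between 0 and 0.931 CPM, with 21 counts at most, and was the 1 member whose highest library was another, the second JR5558 retina at 8 weeks.

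The third C57BL/6J retina at 4 weeks held the highest value of 9 of the 10 members. The third JR5558 retina at 4 weeks had 0 counts of 7 members, while its 702 Cryab counts were close to those of other retinas. These libraries summed to 21424940 and 20386111 counts. Per kilobase of the deposited gene length, which allows levels to be compared between genes, Cryab had a median of 26.8 CPM per kb over the 12 libraries, followed by Cryaa at 2.62, Crygs at 1.20, Cryba1 at 1.02, Crybb2 at 1.01, Cryba4 at 0.876, Crybb1 at 0.827, Crybb3 at 0.657, Cryba2 at 0.507 and Crygn at 0.414. Apart from Cryab and Cryaa, each gene differed from its neighbour in this order by less than the SD of either over the 12 libraries.

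The spread between mice of one group was expressed as the biological coefficient of variation, the part of the relative spread that counting does not explain. It was 1.12 for Cryba1, 1.07 for Crybb2, 1.05 for both Cryaa and Crygs, 1.03 for Cryba2, 0.966 for Cryba4 and 0.847 for Crybb1, against a median of 0.118 over the tested genes. In all, 8 of the 10 members lay above the 99th percentile of the tested genes, which was 0.580. Crygn, at 0.588 and with a median of 0.332 CPM, was just above it. Crybb3 at 0.516 was just under it, with 2.20% of tested genes higher. The percentile was taken over tested genes of all levels, and genes of like level were not compared apart. Cryab, at 0.149, lay among ordinary genes, with 39.6% of tested genes higher.

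**Figure D2:**
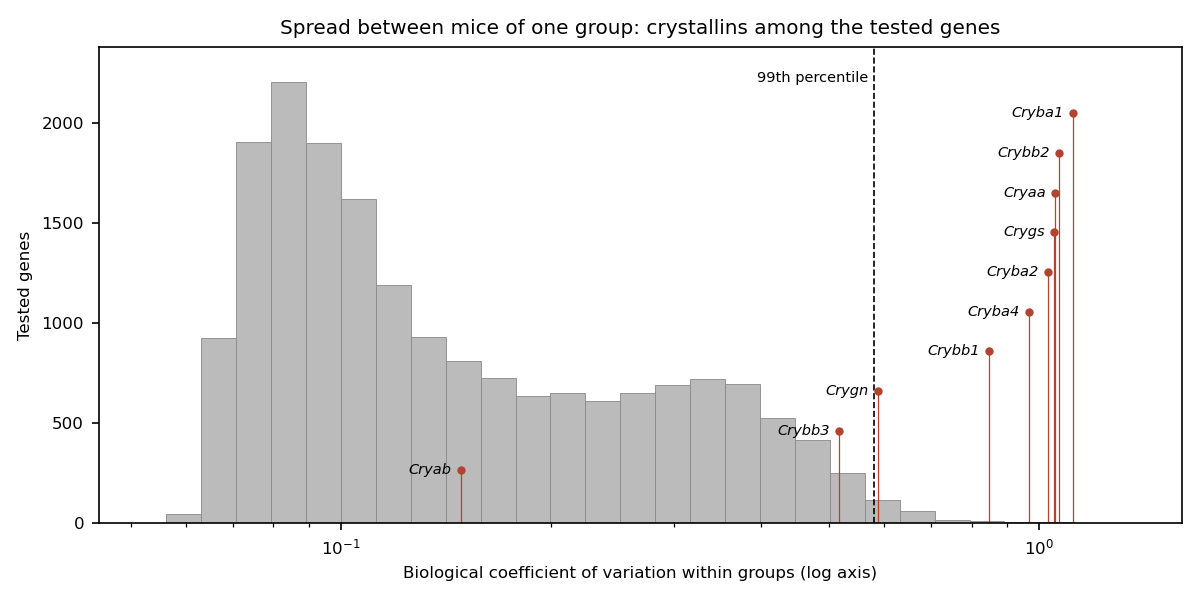
Histogram of the biological coefficient of variation of the 18334 tested genes within groups, on a log axis, with the 10 crystallins marked in red at arbitrary heights. Cryab lies in the body of the distribution at 0.149, and 8 members lie to the right of the dashed 99th percentile at 0.580.

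Most members varied together from retina to retina. On log2 CPM over the 12 libraries, Pearson's r with Cryaa was 0.98 for Crybb2, 0.969 for Cryba1, 0.959 for Crygs, 0.911 for Cryba4, 0.903 for Crybb3, 0.889 for Cryba2 and 0.819 for Crybb1, and Spearman's coefficient was 0.97, 0.979, 0.979, 0.932, 0.958, 0.981 and 0.888 in the same order. Without the 2 libraries farthest from the median of Cryaa, both JR5558 at 4 weeks, these r were between 0.882 and 0.986. Within the 6 JR5558 libraries they were between 0.861 and 0.990, and within the 6 C57BL/6J libraries between 0.894 and 0.989. Cryab gave r = 0.463 and Spearman's coefficient = 0.629, and r = 0.779 without those 2 libraries, 0.765 within JR5558 and 0.886 within C57BL/6J. Crygn gave r = 0.596 and Spearman's coefficient = 0.448, and r = 0.216 without them, 0.839 within JR5558 and 0.0629 within C57BL/6J. These values share libraries and scaling, and are given as a description.

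Where the summed count reached 100, the share of Cryaa spanned a narrower range than the shares of Crybb2, Cryba1, Crygs and Crybb3. Shares of the other members were not computed. In the 10 libraries with at least 100 counts summed over the 9 members other than Cryab, Cryaa made up 30.8 to 40.8% of that sum, Crybb2 12.4 to 28.2%, Cryba1 5.13 to 17.9%, Crygs 2.41 to 13.7% and Crybb3 4.61 to 19.4%. The sum itself ranged between 5.46 and 155.5 CPM in those libraries. In the library with the largest sum, Cryaa made up 40.3% (95% Wilson interval 38.6 to 42.0%), and in that with the smallest, 30.8% (23.1 to 39.6%). Cryba1 made up 17.9% (16.7 to 19.3%) in the third and 5.83% (3.36 to 9.90%) in the first C57BL/6J retina at 4 weeks, and Crybb3 19.4% (14.5 to 25.4%) in the third JR5558 retina at 8 weeks and 4.84% (4.16 to 5.62%) in the third C57BL/6J retina at 4 weeks. The Cryba1 intervals do not overlap, and neither do those of Crybb3, whereas the Cryaa intervals do. For Cryba1 and Crybb3 the shares thus differed between the named libraries by more than these intervals. No allowance was made for the choice of these pairs among the libraries. Below 100 counts the shares were different. In the first JR5558 retina at 4 weeks, with 42 counts in the sum, Cryaa made up 11.9% (5.19 to 25%). In the third JR5558 retina at 4 weeks, with 17 counts in the sum, Crybb3 made up 76.5% (52.7 to 90.4%). Intervals and limits cover counting error only.

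**Figure D3:**
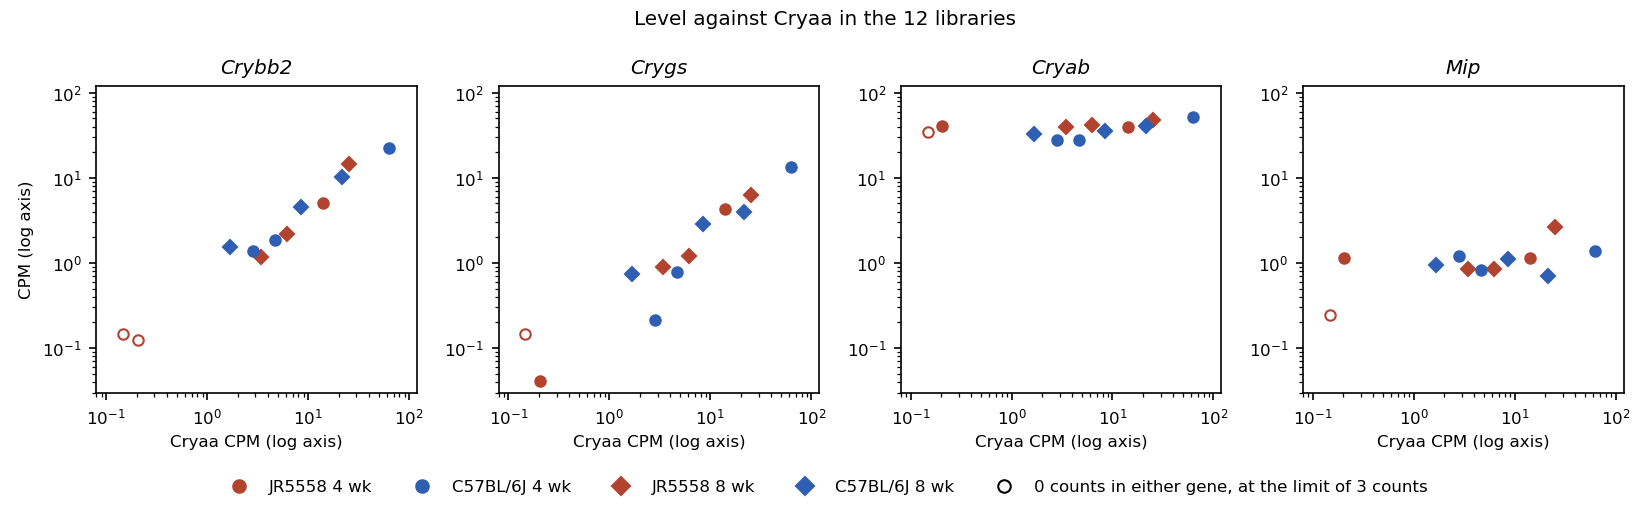
CPM of Crybb2, Crygs, Cryab and the lens fibre gene Mip against CPM of Cryaa in the 12 libraries, both on log axes. Crybb2 and Crygs climb with Cryaa over its whole range, and Cryab stays between 27.7 and 51.4 CPM. Mip varies between 0.245 and 2.67 CPM, from 5 to 55 counts, with its lowest value in JR5558 at 4 weeks and its highest in JR5558 at 8 weeks.

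Because retinas can carry other eye tissue, markers of those tissues were read beside the crystallins. Of 11 lens fibre genes other than crystallins, 3 were tested, Mip (a lens water channel) and the beaded filament genes Bfsp1 and Bfsp2, and none passed in any comparison. The list summed to 2.21 to 4.97 CPM in JR5558 at 4 weeks, 3.06 to 6.56 CPM in JR5558 at 8 weeks, 3.08 to 5.93 CPM in C57BL/6J at 4 weeks and 2.73 to 3.83 CPM in C57BL/6J at 8 weeks. Lim2, an abundant lens fibre membrane protein, had 0 counts in all 12 libraries, and Dnase2b, which degrades DNA in maturing fibres, had 0 in all but the first JR5558 retina at 4 weeks, with 2 counts. The sum followed Cryaa with r = 0.682 and Spearman's coefficient = 0.531, with r = 0.575 without the 2 libraries named above, and with r = 0.841 within JR5558 and 0.457 within C57BL/6J. The lens sum was 6.56 CPM in the first JR5558 retina at 8 weeks, beside 69.6 CPM for the 9 members other than Cryab. It was 5.93 beside 155.5 CPM in the third C57BL/6J retina at 4 weeks. In JR5558 at 4 weeks it was 4.97 beside 35.6 CPM in the second retina and 2.21 beside 0.835 CPM in the third. In C57BL/6J at 8 weeks the order was the reverse, at 3.83, 3.54 and 2.73 beside 5.46, 23.8 and 54.5 CPM. The part of the lens list in the crystallin values was not tested. The 6 corneal and conjunctival genes summed to 0.0470 to 1.62 CPM, with none tested, and the 7 iris and ciliary body genes to 18.4 to 24.3 CPM, with 0 passing in any comparison. Pigment epithelium genes summed to 434.5 to 686.1 CPM in JR5558 and 156.8 to 359.1 CPM in C57BL/6J, with 12 of 14 higher in JR5558 at 4 weeks and 3 of 14 at 8 weeks, against 599 and 466 of the 18334 tested genes at those ages. That sum gave r = -0.365 with Cryaa, 0.0505 without the 2 libraries, -0.5 within JR5558 and 0.108 within C57BL/6J. In whole tissue, fewer cells of a type and less RNA per cell cannot be told apart.

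JR5558 was first compared with C57BL/6J at 4 weeks. No member passed edgeR's quasi-likelihood test with Benjamini-Hochberg adjustment over all tested genes, whereas 6.16% of the tested genes did. Cryaa had a log2 fold change of -2.36 ± 1.18 (SE, adjusted p = 0.29), and Cryab 0.09 ± 0.17 (adjusted p = 0.844), with n = 3 mice a group. Of the 10, 9 had negative fold changes with a median over the members of -2.07, against 0.00 over all tested genes, and 4 had an unadjusted p under 0.05 (Cryba1, Cryba2, Crybb1 and Crybb3). The lowest adjusted p was 0.201, for Crybb1, at -2.45 ± 1.04. For no member did the groups separate without overlap, against 19.6% of the tested genes. DESeq2 and limma-voom also called 0 members.

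These fold changes rest on single retinas. Without the third C57BL/6J retina at 4 weeks, Cryaa was at 0.30 (adjusted p = 0.931), and Cryab passed the test at 0.45 ± 0.11 (adjusted p = 0.0187), higher in JR5558. Without the second JR5558 retina, Cryaa (-7.65, adjusted p = 0.0271), Crybb2 (-10.46, adjusted p = 0.0383) and Crygs (-7.42, adjusted p = 0.0488) passed, but the 2 JR5558 libraries left hold 5 and 0 Cryaa counts, so these fitted values depend on the prior count and bound nothing. Testing all genes with any count called 8 members, yet that fit took infinite prior degrees of freedom and so gave Cryaa the trend's quasi-likelihood variance of 0.885, in place of 41.6 with the filter. With a robust prior, added after seeing the data, the same unfiltered genes gave 0 members called and an adjusted p of 0.628 for Cryaa.

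At 8 weeks the members gave no call either, against 5.18% of the tested genes. Cryaa averaged 11.7 ± 11.9 CPM in JR5558 and 10.6 ± 10.1 CPM in C57BL/6J (SD, n = 3 each), a log2 fold change of 0.14 ± 1.12 (SE, adjusted p = 0.973) with a 95% interval between -2.20 and 2.49. Cryab averaged 43.0 ± 3.9 CPM in JR5558 and 36.2 ± 3.9 CPM in C57BL/6J, a log2 fold change of 0.25 ± 0.17 (adjusted p = 0.514) with an interval between -0.12 and 0.61. The interval of Cryab is narrow beside that of Cryaa. The median over the members was 0.26, against 0.00 over all tested genes, 0 members had an unadjusted p under 0.05, and the groups of 0 members separated without overlap, against 30.2% of the tested genes. Without the first JR5558 retina, Cryaa was at -1.12 (adjusted p = 0.774).

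**Figure D4:**
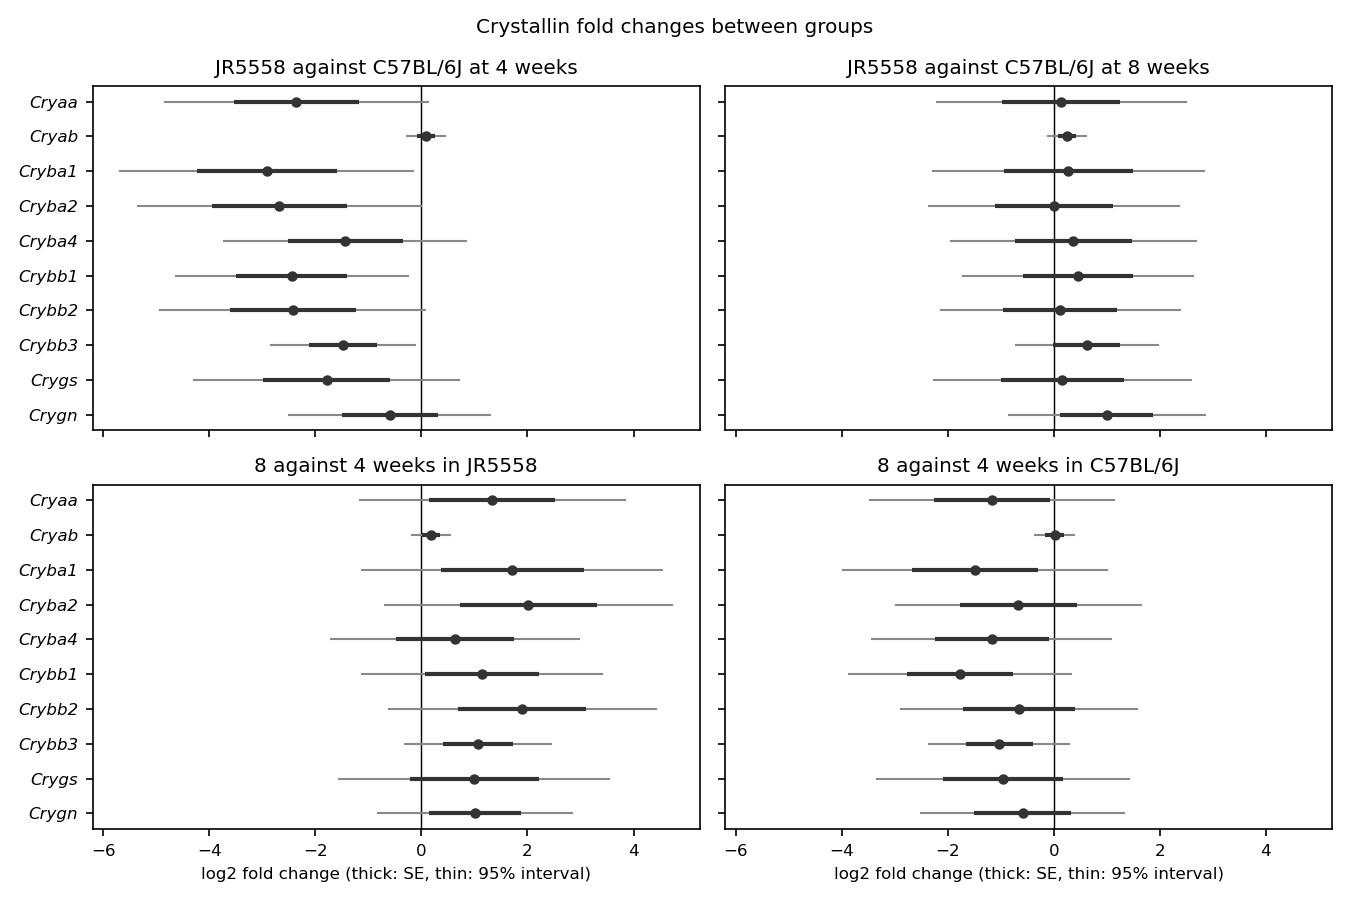
Log2 fold changes of the 10 crystallins in 4 comparisons, with the SE as a thick bar and the 95% interval as a thin one. Cryab has the narrowest intervals, all across 0, and the beta crystallins and Cryaa have intervals several log2 units wide.

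Between ages, 8-week retinas were compared with 4-week retinas of the same strain. In JR5558, Cryaa averaged 11.7 ± 11.9 CPM at 8 weeks and 4.77 ± 8.09 CPM at 4 weeks (SD, n = 3 each), a log2 fold change of 1.33 ± 1.19 (SE, adjusted p = 0.615), and Cryab was at 0.18 ± 0.17 (adjusted p = 0.644). The fold change of Cryaa moved to 0.074 without the first JR5558 retina at 8 weeks and to 6.62 without the second at 4 weeks, this last value being a fit against 5 and 0 counts, with no call in either case. None of the members passed, against 1.51% of the tested genes, and 0 separated without overlap, against 24.3%. The median over the members was 1.10, against -0.01 over all tested genes. In C57BL/6J, Cryaa averaged 10.6 ± 10.1 CPM at 8 weeks and 23.4 ± 34.0 CPM at 4 weeks, a log2 fold change of -1.17 ± 1.10 (adjusted p = 0.663), and Cryab was at 0.02 ± 0.17 (adjusted p = 0.977). Again none passed, against 0.431% of the tested genes, and 0 separated, against 19%. The median was -0.99, against 0.00. Without the third C57BL/6J retina at 4 weeks, Cryaa was at 1.49 (adjusted p = 0.702). No member had an unadjusted p under 0.05 in either strain. Without the filter on low counts, 4 members were called in JR5558 and 3 in C57BL/6J, and with the robust prior 0 in each.

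Whether the strain effect changed with age was tested as an interaction. The test called 0 members and 0.0927% of the tested genes. The fitted difference was 2.50 ± 1.62 for Cryaa (SE, adjusted p = 0.79) and 0.16 ± 0.25 for Cryab (adjusted p = 0.932), and Crybb3, at 2.10 ± 0.91, was the 1 member with an unadjusted p under 0.05 (adjusted p = 0.64). The comparisons share groups, so their values for a member are not independent. In the authors' deposited table, 0 members had an adjusted p under 0.05 in each of its 4 comparisons, with a lowest adjusted p of 0.542 for strain at 4 weeks, 0.103 for strain at 8 weeks, 0.241 for age in JR5558 and 0.771 for age in C57BL/6J.

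Of 14 other genes named for crystallins, 10 were tested. At 4 and 8 weeks alike, the same 2 were higher in JR5558 and 0 lower, against 599 and 466 of the 18334 tested genes higher. Neither Crym nor Cryzl2, the 2 genes, is a lens structural protein of the alpha, beta or gamma families. Crym, a thyroid hormone binding protein called mu-crystallin, had 146, 119.6 and 129.7 CPM in JR5558 and 68.5, 64.9 and 54.8 CPM in C57BL/6J at 4 weeks, a log2 fold change of 1.07 ± 0.11 (adjusted p = 1.74e-06), and one of 0.87 ± 0.11 at 8 weeks (adjusted p = 2.51e-05). The strains do not overlap at 4 weeks. Cryzl2, a zeta-crystallin-like gene, had 9.12, 6.59 and 5.74 CPM in JR5558 and 4.23, 4.94 and 3.15 CPM in C57BL/6J at 4 weeks, a log2 fold change of 0.81 ± 0.23 (adjusted p = 0.0413), and one of 1.38 ± 0.22 at 8 weeks (adjusted p = 0.000612).

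The gamma crystallins A to F are close copies of each other, so that reads may be split among them and their values are uncertain. Crygd had 0, 2.88 and 0 CPM in JR5558 and 0.279, 0.106 and 5.41 CPM in C57BL/6J at 4 weeks. Crygb ranged between 0 and 4.09 CPM, Crygc between 0 and 3.39 CPM, Cryge between 0 and 1.18 CPM and Crygf between 0 and 0.988 CPM. For these 5 genes the third C57BL/6J retina at 4 weeks was the highest. The first JR5558 retina at 8 weeks, with 25.3 CPM of Cryaa, had 38 counts of Crygb, 28 of Crygc and 23 of Crygd. That retina had 1 count of Cryge and 0 of Crygf, which had only 62 and 43 counts over all libraries. Cryga had at most 2 counts in any library and 0 in every C57BL/6J library.

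Of 8 small heat shock proteins, the family of Cryaa and Cryab, 4 were tested and 0 passed in any comparison, with Hspb6 at 98.6 to 116.3 CPM in JR5558 and 88.7 to 120.1 CPM in C57BL/6J. Of 10 genes of the heat shock response, 1 rose, between ages in JR5558, where 124 of the 18334 tested genes rose. That gene, Hspa1b, an inducible chaperone, had 49.1, 42.8 and 44.7 CPM at 8 weeks and 28.7, 29.9 and 29.3 CPM at 4 weeks. Its log2 fold change was 0.64 ± 0.11 (adjusted p = 0.00596). Between ages in C57BL/6J, Hspa1b was at 0.42 ± 0.11 (adjusted p = 0.109). Hspa1a was at 0.31 ± 0.11 between ages in JR5558 (adjusted p = 0.161), so neither of these passed. Of 10 transcription factors known to regulate crystallins in lens, 7 were tested and 1 rose, in JR5558 at 8 weeks, where 466 of the tested genes were higher: Sox2 had 42.6, 43.6 and 45.8 CPM in JR5558 and 30.5, 31.8 and 31.6 CPM in C57BL/6J, a log2 fold change of 0.49 ± 0.10 (adjusted p = 0.00532). Foxe3, a lens epithelium factor, had 0 counts in all 12 libraries. Of 10 Müller glia and astrocyte genes, 7 were higher in JR5558 at 4 weeks and 5 at 8 weeks, against 599 and 466 of the 18334 tested genes. Crym is on that glial list as well. The part of these glial genes in the Crym difference was not tested.

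By likeness of log2 CPM over the 12 libraries, with the 10 members themselves left out, the named protein-coding genes nearest to Cryaa were Crygc (r = 0.898), Nsun2 (0.897), Nop58 (0.863), Ptrhd1 (0.859) and Cdc45 (0.849). Nearest to the mean of the beta and gamma members were Crygc (0.954), Nsun2 (0.876), Crygd (0.865), Cdc45 (0.836) and Ube2t (0.832). Nearest to Cryab were Rrh (0.886), Tmem209 (0.868), Anp32e (0.862), Tfg (0.857) and Sar1b (0.856). No gene stood in both the list of Cryaa and that of Cryab. Nsun2, between 46.2 and 62.8 CPM, varied over a far narrower range than Cryaa.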

How the data were processed

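Counts, not reads, were the starting point. Tools named in the submitters' processing notes are featureCounts 1.5.0-p3, HISAT2 2.0.5 and fastp, and the genome named is mm10 (GRCm38). For no member did the deposited positions share a start or end with GRCm38.p6, so that name does not settle their build. The authors deposited raw counts for each gene in each library, per the file headers. The table also holds FPKM values, group mean signal values, gene lengths, log2 fold changes and p-values of the authors, whose test is not given in the sources used here; the FPKM and mean signal columns the authors deposited were not used for tests.

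Genes passing filterByExpr (minimum count 10, minimum total 15) were scaled by TMM and fitted with edgeR 4.0.16 in R 4.3.3, 1 mean per group over 12 libraries, and tested by the quasi-likelihood test (2-sided, Benjamini-Hochberg, threshold 0.05). CPM are counts scaled to 1000000, and log2 CPM used a prior count of 2. Alternatives used limma 3.58.1, DESeq2 1.42.0, RLE scaling, other filters and priors, a replicate block and leaving out each library. Tables were read with version 1.17.8 of the data.table package. The test was checked on simulated data. All 10 members are named; list genes are named where past the threshold, up to 3 per list, or else by level, and those named for 0 counts and the gamma A to F genes were chosen after their values were seen. The members and lists were chosen with earlier results of these data known. A count of 0 is given a limit of 3 counts. The replicates are separate mice, and the number of mice limits precision.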

Additional observations from a re-analysis of the deposited data

How the results depend on the processing

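The main test called 0 members in each comparison, and so did RLE size factors, a filter of at least 1 CPM in 3 libraries, DESeq2, limma-voom with sample weights, fits of only the groups compared and robust empirical Bayes. No filter on low counts called 8, 0, 4, 3 and 7 members for strain at 4 weeks, strain at 8 weeks, age in JR5558, age in C57BL/6J and the interaction, with infinite prior degrees of freedom, and 0 in each with a robust prior, an alternative chosen after seeing the data. Leaving out 1 library called 0 to 3 members for strain at 4 weeks and 0 in the other comparisons. Over all genes, calls numbered 1130, 949, 277, 79 and 17 for strain at 4 weeks, strain at 8 weeks, age in JR5558, age in C57BL/6J and the interaction. Without the filter they numbered 1456, 1290, 854, 445 and 96, and with the robust prior as well 1432, 1255, 784, 400 and 57. DESeq2 gave 1410, 1233, 746, 407 and 63 and limma-voom 1087, 2539, 1748, 368 and 87, and only the groups compared gave 558, 2183, 544 and 22 for the first 4. Leaving out 1 library gave 814 to 1162 for strain at 4 weeks, 538 to 649 for strain at 8 weeks, 63 to 689 for age in JR5558, 16 to 125 for age in C57BL/6J and 6 to 38 for the interaction. The replicate numbers do not pair the mice: deviations of same-numbered libraries correlated between -0.114 and 0.0867 in 18 pairs, with 0 over 0.1. With a replicate block, 0 members in each comparison and 1010, 845, 218, 59 and 12 genes were called.

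Log2 fold changes that turned sign under another setting, none past the threshold, were 0.93 for Cryaa (age in C57BL/6J, limma-voom), -0.15 for Cryab (the interaction, limma-voom), -0.0056 for Cryba2 (strain at 8 weeks, DESeq2), -0.33 for Crybb2 (strain at 8 weeks, limma-voom) and -0.23 for Crygs (strain at 8 weeks, limma-voom). For strain at 4 weeks, log2 fold changes with 1 library left out ranged over Cryaa -7.65 to 0.30, Cryab -0.078 to 0.45, Cryba1 -8.44 to 0.89, Cryba2 -4.54 to 0.042, Cryba4 -5.37 to 0.37, Crybb2 -10.46 to -0.0070 and Crygs -7.42 to 1.51. For strain at 8 weeks, log2 fold changes with 1 library left out ranged over Cryaa -1.12 to 1.22, Cryba1 -1.11 to 1.57, Cryba2 -1.69 to 1.31, Cryba4 -0.33 to 0.82, Crybb1 -0.13 to 2.23, Crybb2 -1.67 to 0.98, Crybb3 -0.0070 to 1.04 and Crygs -1.24 to 0.66. For age in JR5558, leaving out 1 library gave Cryaa 0.074 to 6.62. For age in C57BL/6J, log2 fold changes with 1 library left out ranged over Cryaa -2.25 to 1.49 and Cryab -0.14 to 0.38. For the interaction, log2 fold changes with 1 library left out ranged over Cryaa -0.16 to 7.79 and Cryab -0.20 to 0.33. The cause of these changes was not tested, apart from the prior degrees of freedom above. At 3 mice a group and this spread, changes of the lens-abundant members well over 1 log2 unit were within the 95% intervals.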
